A study of Luscinia megarhynchos and Luscinia luscinia with 4 samples.

Results

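HAUS6 is a gene with entries assigned to the germline-restricted chromosome (GRC) of nightingales. The mRNA reads placed on these entries were measured here. All entries with the gene symbol HAUS6 were taken from the deposited expression table, which gave 2 of its 799 entries. The 2 entries are separate protein identifiers of the collared flycatcher annotation, XP_016160879 and XP_016160880, and each was kept apart. HAUS6 was picked because XP_016160879 had the highest value of the table in the *L. luscinia* ovary, so its level in that library is given as a description only.

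The mRNA came from the ovary of an adult female and the testis of an adult male thrush nightingale (*Luscinia luscinia*), and from the ovary of an adult female and the testis of an adult male common nightingale (*L. megarhynchos*). All 4 were wild birds, and the labels name no treatment. Each species and tissue had 1 library from 1 bird and so no replicates, no test across birds was made, and differences between tissues or between species cannot be told apart from differences between single birds. Total RNA was treated with DNase, mRNA was selected by its poly-A tail, and stranded libraries were read as 150 bp single-end reads.

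HAUS6 encodes a subunit of augmin, the HAUS complex. Augmin binds the side of an existing spindle microtubule and recruits the gamma-tubulin ring complex, which starts a new microtubule there as a branch, so the complex adds microtubules to the spindle in mitosis and meiosis. The GRC is a chromosome of songbirds that is found in germ cells and is eliminated from somatic cells, and the genes on it are mostly copies of genes on the other, A chromosomes. Gonads mix germ cells with somatic cells, the share of germ cells in each library is not known, and in such bulk tissue fewer cells of a type and less RNA per cell cannot be told apart. The study advises against comparing FPKM between datasets, as the share of cells that held a GRC is unknown.

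Several limits bear on what an entry measures. The exons of the GRC were annotated by their best match among flycatcher coding sequences, so reads of one GRC copy may be split between the 2 HAUS6 identifiers, and how far this happened was not tested. Reads were aligned to the somatic genome together with the GRC and only unique alignments were kept, but reads of the A-chromosomal HAUS6 that were placed on the GRC would be counted, and this was not tested. The GRC assemblies came from the testes of other males, and whether the 4 birds of the expression data carried a HAUS6 copy on their GRC was not tested. The ovary RNA came from the female whose somatic genome was the reference of its species, while the testis RNA came from another bird. Whether this changed unique alignment between tissues was not tested. Both species share one list of entries, although the paper reports that their GRC assemblies differ in gene content and hold gaps. The list holds more genes than the paper identifies on the GRCs, where a minimum share of the coding region was required. Which entries, HAUS6 among them, met that minimum was not tested here, so ranks and shares over all entries are not those of the paper's gene set. An entry at 0 in both tissues of a species cannot be told apart from a gene without sequence in the assembly of that species.

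XP_016160879 was above 0 in all 4 libraries. It had 26.2 FPKM in the *L. luscinia* ovary and 6.18 FPKM in the *L. luscinia* testis. It had 8.49 FPKM in the *L. megarhynchos* ovary and 1.16 FPKM in the *L. megarhynchos* testis. FPKM is a read number scaled by the length of a gene and the size of the library. The order of the levels was thus *L. luscinia* ovary, *L. megarhynchos* ovary, *L. luscinia* testis and *L. megarhynchos* testis, and without replicates no neighbours in this order can be said to differ beyond the spread between birds.

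The file holds no counts, but the ratio of ovary to testis FPKM within a species matched a pair of whole read numbers in 95 of 95 *L. luscinia* entries above 0 in both tissues and in 114 of 114 *L. megarhynchos* entries. A match had to lie within the rounding of the deposited values and the error of the relative depth, with up to 5000 testis reads searched and fewer than 0.01 matches expected by chance for an entry. These pairs are in lowest terms, so the true numbers are the pair or a whole multiple of it. For XP_016160879 they were 913 ovary and 294 testis reads in *L. luscinia*, and 107 ovary and 9 testis reads in *L. megarhynchos*. The 95% Poisson intervals from these least reads are the widest that counting can give, and they cover counting error only. They were 24.5 to 27.9 FPKM in the *L. luscinia* ovary, 5.50 to 6.93 FPKM in the *L. luscinia* testis, 6.96 to 10.3 FPKM in the *L. megarhynchos* ovary and 0.532 to 2.21 FPKM in the *L. megarhynchos* testis. None of these 4 intervals overlapped another.

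The second identifier, XP_016160880, was also above 0 in all 4 libraries but at a level that differed far more between species. It had 0.00367 FPKM in the *L. luscinia* ovary and 0.00753 FPKM in the *L. luscinia* testis. It had 1.70 FPKM in the *L. megarhynchos* ovary and 0.185 FPKM in the *L. megarhynchos* testis. Its least reads were 5 ovary and 14 testis reads in *L. luscinia*, against 1364 ovary and 91 testis reads in *L. megarhynchos*. In *L. luscinia* the widest intervals of ovary (0.00119 to 0.00856 FPKM) and testis (0.00412 to 0.0126 FPKM) overlapped. In *L. megarhynchos* they did not overlap, with 1.61 to 1.79 FPKM in the ovary and 0.149 to 0.227 FPKM in the testis.

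**Figure D1:**
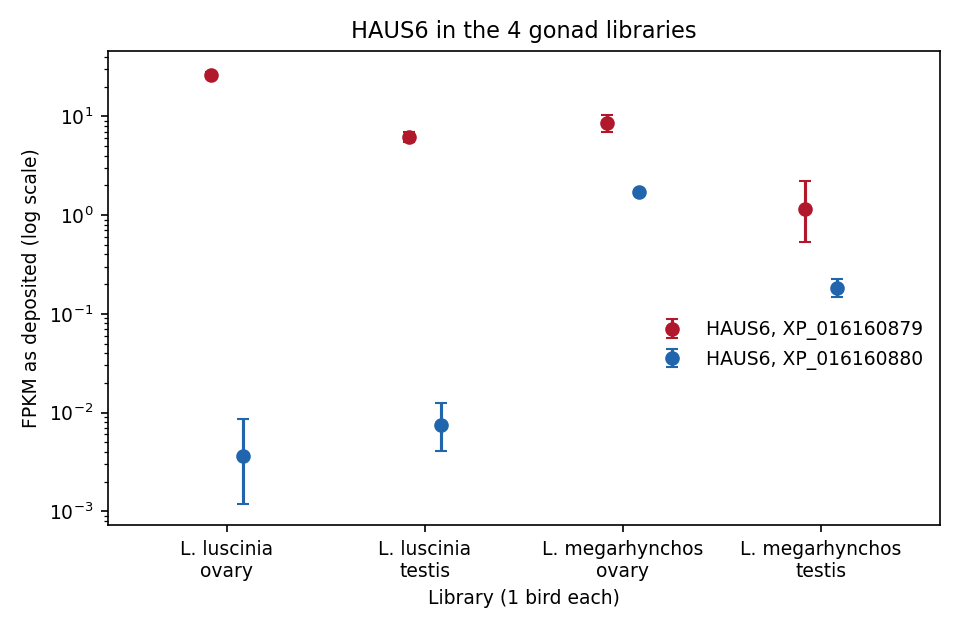
FPKM of the 2 HAUS6 identifiers (log scale) in the 4 libraries, 1 bird each. Points are deposited values and bars are the widest 95% Poisson intervals from the least reads, which cover counting error only. XP_016160879 lies between 1.16 and 26.2 FPKM in every library, while XP_016160880 is below 0.01 FPKM in both *L. luscinia* libraries.

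The sum of both identifiers was 26.2 FPKM in the *L. luscinia* ovary, 6.19 FPKM in the *L. luscinia* testis, 10.2 FPKM in the *L. megarhynchos* ovary and 1.35 FPKM in the *L. megarhynchos* testis. XP_016160880 made up 0.0140% of this sum in the *L. luscinia* ovary and 0.122% in the *L. luscinia* testis. It made up 16.7% in the *L. megarhynchos* ovary and 13.7% in testis of that species. XP_016160879 was therefore 7140-fold and 821-fold above XP_016160880 in the *L. luscinia* ovary and testis, and 4.995-fold and 6.30-fold above it in the *L. megarhynchos* ovary and testis. The 7140-fold and 821-fold ratios rest on as few as 5 and 14 reads of XP_016160880.

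The FPKM that 1 read was worth is known only as an upper limit. In the *L. megarhynchos* ovary at least 1364 reads gave XP_016160880 its 1.70 FPKM, at most 0.00125 FPKM per read, while XP_016160879 had 8.49 FPKM from at least 107 reads, at most 0.0793 FPKM per read. The study describes the FPKM as scaled by the length of a gene on the GRC. The deposited table holds neither lengths nor reads, so this scaling could not be checked from it. It cancels in a ratio of ovary to testis within a species, but a comparison between genes or between species rests on it.

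Within its library, XP_016160879 was the highest of 140 entries above 0 in the *L. luscinia* ovary, the value it was picked for. It stood at rank 7 of 135 entries above 0 in the *L. luscinia* testis. It stood at rank 11 of 198 in the *L. megarhynchos* ovary and at rank 22 of 183 in the *L. megarhynchos* testis. Its fold over the median entry above 0 was 1254 in the *L. luscinia* ovary, 194 in testis of that species, 503 in the *L. megarhynchos* ovary and 49.1 in testis of that species. In all 4 libraries it was thus in the upper part of a steep distribution, as the ranked plot shows.

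Of the FPKM summed over all entries, XP_016160879 made up 21.1% in the *L. luscinia* ovary and 2.53% in the *L. luscinia* testis. It made up 1.68% in the *L. megarhynchos* ovary and 0.767% in testis of that species. These sums were 124 FPKM in the *L. luscinia* ovary, 244 FPKM in the *L. luscinia* testis, 506 FPKM in the *L. megarhynchos* ovary and 152 FPKM in the *L. megarhynchos* testis. Few entries held most of each sum, as the 5 highest made up 69.0% of it in the *L. luscinia* ovary, 74.0% in testis of that species, 76.5% in the *L. megarhynchos* ovary and 52.8% in testis of that species. The share of HAUS6 therefore carries the level of those entries as well as its own.

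XP_016160880 was far down the order in *L. luscinia*, at rank 105 in the ovary and rank 93 in the testis. In *L. megarhynchos* it stood at rank 18 in the ovary and rank 53 in the testis. It made up 0.00295% of the summed FPKM in the *L. luscinia* ovary and 0.00308% in the *L. luscinia* testis, against 0.336% in the *L. megarhynchos* ovary and 0.122% in testis of that species.

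**Figure D2:**
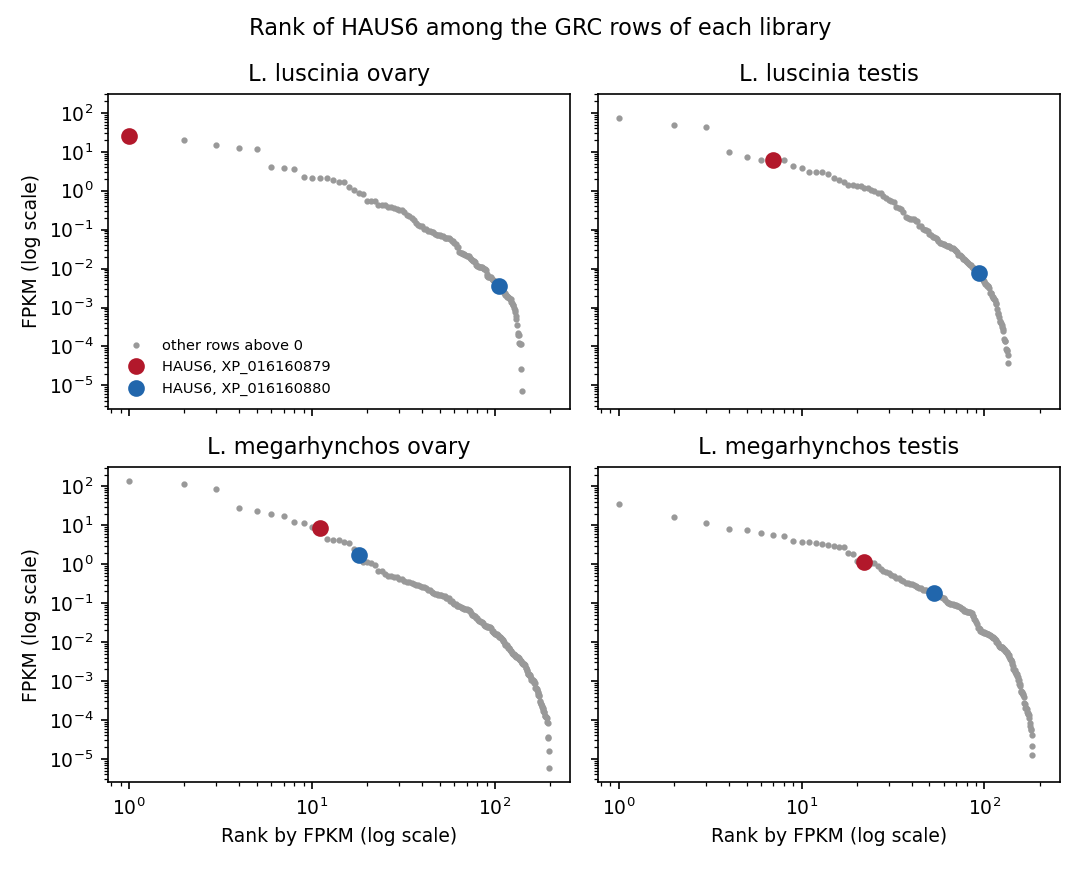
FPKM (log scale) of every entry above 0 against its rank (log scale) in each of the 4 libraries, 1 bird each, with both HAUS6 identifiers marked. XP_016160879 stands at ranks 1 and 7 in the *L. luscinia* ovary and testis and at ranks 11 and 22 in the *L. megarhynchos* ovary and testis.

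The entries next to XP_016160879 differed by library. In the *L. luscinia* ovary the next below were SLC26A9, an anion transporter of epithelia, at 19.8 FPKM, FBXO11, a substrate receptor of a ubiquitin ligase, at 15.3 FPKM, and SCX, a transcription factor of tendon progenitors, at 12.7 FPKM. HAUS6 was 1.32-fold above SLC26A9. In the *L. luscinia* testis the 3 above it were LOC107603907 (9.94 FPKM), LOC101822191 (7.40 FPKM) and LOC107604624 (6.33 FPKM), and the 3 below were LOC101807535 (5.998 FPKM), LOC107604463 (4.33 FPKM) and LOC101811078 (3.90 FPKM). LOC symbols mark flycatcher genes without an assigned name. Among entries with an assigned name, HAUS6 was the highest in the *L. luscinia* testis too, with 61.9% of their summed FPKM.

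In the *L. megarhynchos* ovary the 3 entries above XP_016160879 were SYCE3, a protein of the central element of the synaptonemal complex, at 12.1 FPKM, PIAS1, a SUMO ligase, at 11.6 FPKM, and LOC101813323 at 9.03 FPKM. Below it came POLR2B, the second-largest subunit of RNA polymerase II, at 4.32 FPKM, POLD2, a subunit of DNA polymerase delta, at 4.25 FPKM, and LOC107603367 at 4.09 FPKM. HAUS6 was 1.96-fold above POLR2B and within 1.06-fold of LOC101813323. In the *L. megarhynchos* testis its neighbours lay within its counting interval: LOC101815184 (1.82 FPKM), LOC101808449 (1.21 FPKM) and LOC107603488 (1.21 FPKM) above it, and LOC107604463 (1.08 FPKM), LOC107604319 (1.06 FPKM) and BTF3 (1.05 FPKM) below it. BTF3 is a subunit of the complex that binds nascent chains at the ribosome.

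In both species XP_016160879 was higher in the ovary than in the testis. The paper describes more GRC copies in female than in male germ cells, with exceptions, and its exclusion from the nucleus in male meiosis. The part of this in the ovary over testis ratios was not tested. In *L. luscinia* the ovary over testis ratio was 4.24 (log2 2.08), with a widest counting interval of 3.71 to 4.85. Of the 95 entries above 0 in both *L. luscinia* tissues, 23.2% were at least 2-fold higher in the ovary, and the median ratio was 0.682. That median equals the ratio of entries with 1 ovary and 2 testis least reads, so it may rest on very few reads. A higher ratio than that of HAUS6 was found in 13 of those 95 entries. Every ratio or difference of XP_016160879 that holds the *L. luscinia* ovary uses the value it was picked for and is a description only. With each FPKM divided by the sum of its library, the log2 ratio was 3.06.

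In *L. megarhynchos* the ovary over testis ratio of XP_016160879 was 7.30 (log2 2.87), with a widest counting interval of 3.71 to 16.4, which is broad because of the 9 least reads of the testis. Of 114 entries above 0 in both tissues, 26.3% were at least 2-fold higher in the ovary, the median ratio was 0.614, and 16 entries had a higher ratio than HAUS6. This median equals the ratio of entries with 1 ovary and 1 testis least read, so it too may rest on very few reads. Divided by the library sums, the log2 ratio of XP_016160879 was 1.13, still on the side of the ovary.

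XP_016160879 was high in the testis as well as in the ovary. The next comparison was chosen after the values were seen and has no test, and in *L. luscinia* it uses the ovary value that HAUS6 was picked for. Of 25 entries at 1 FPKM or more in the *L. luscinia* testis, HAUS6 was the only entry with a higher FPKM in the ovary. Of 25 such entries in the *L. megarhynchos* testis, 2 were higher in the ovary, HAUS6 and LOC101813323. Entries picked by a high testis value lean to the testis, so few that are higher in the ovary follow in part from that choice. Over all entries above 0 in both tissues, 23.2% (*L. luscinia*) and 26.3% (*L. megarhynchos*) were at least 2-fold higher in the ovary. The counting interval of HAUS6 in that testis included 1 FPKM, so counting error leaves its place among the 25 unsure.

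Seen from the ovary, 17 entries had 1 FPKM or more in the *L. luscinia* ovary, of which 3 were listed at 0 in the testis, 8 had a higher ovary over testis ratio than HAUS6 and 5 a lower one. SLC26A9 had 19.8 FPKM in the *L. luscinia* ovary against 0.0990 FPKM in the *L. luscinia* testis, a ratio of 200.4, and FBXO11 had 15.3 against 0.0224 FPKM, a ratio of 682. SCX had 12.7 FPKM in the *L. luscinia* ovary and 0.0108 FPKM in the *L. luscinia* testis. The entries closest in level to HAUS6 in that ovary were thus near 0 in the testis, where HAUS6 had 6.18 FPKM.

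In *L. megarhynchos* 21 entries had 1 FPKM or more in the ovary, of which 6 were listed at 0 in the testis, 10 had a higher ratio than XP_016160879 and 4 a lower one. SLC26A9 had 86.6 FPKM in the *L. megarhynchos* ovary against 0.00994 FPKM in the *L. megarhynchos* testis, and FBXO11 had 19.2 against 0.01002 FPKM. SYCE3 had 12.1 FPKM in the *L. megarhynchos* ovary and 0.216 FPKM in the testis. Only 3 of the 799 entries had 1 FPKM or more in all 4 libraries: LOC101813323, HAUS6 and LOC107604624. Their lowest values over the 4 libraries were 1.73, 1.16 and 1.06 FPKM, in that order of the names. The 1.16 FPKM of HAUS6 rests on as few as 9 reads, and its counting interval of 0.532 to 2.21 FPKM included 1 FPKM.

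**Figure D3:**
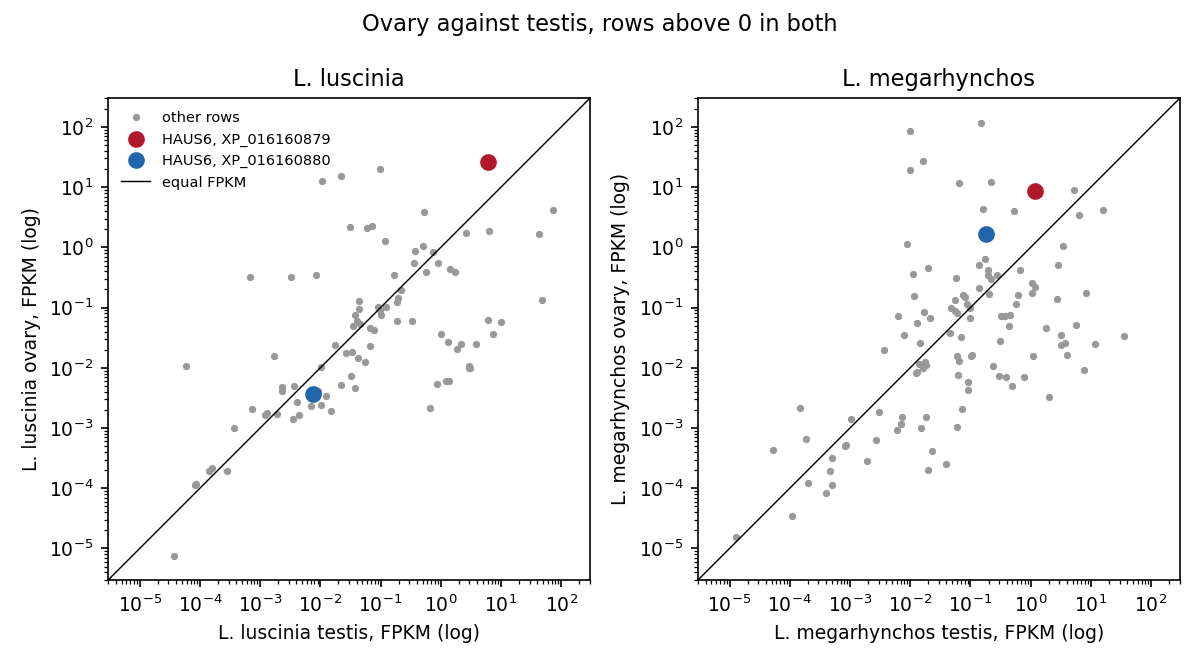
Ovary FPKM against testis FPKM (both log scales) of entries above 0 in both tissues, for *L. luscinia* (95 entries) and *L. megarhynchos* (114 entries), 1 bird per tissue, with a line at equal FPKM. XP_016160879 lies above the line in both species, at ratios of 4.24 and 7.30, while XP_016160880 lies below it in *L. luscinia* (0.487) and above it in *L. megarhynchos* (9.21).

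XP_016160880 did not point the same way in both species. Its ovary over testis ratio was 0.487 in *L. luscinia* (log2 -1.04), and the widest counting interval of 0.137 to 1.43 included equal levels. Of the 95 *L. luscinia* entries, 42.1% were at least 2-fold lower in the ovary. In *L. megarhynchos* its ratio was 9.21 (log2 3.20), with a widest interval of 7.44 to 11.5, and 13 of 114 entries had a higher ratio.

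The difference of the log2 ovary over testis ratios, *L. luscinia* minus *L. megarhynchos*, does not carry the length or the assembled share of a gene. For XP_016160879 it was -0.79, with a widest counting interval of -1.97 to 0.21 that included 0. Over the 41 entries above 0 in all 4 libraries the median difference was -1.39 and the quartiles were -2.66 and 0.32, and 33 of the 41 lay farther from 0 than HAUS6. With FPKM divided by the library sums the difference was 1.93, so its direction depended on the scaling. For XP_016160880 the difference was -4.24, with a widest interval of -6.10 to -2.66, and 5 of the 41 lay farther from 0.

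Among these 41 entries, 8 were higher in the ovary in both species, XP_016160879 among them. Another 17 were higher in the testis in both species. A further 12 were higher in the ovary in *L. megarhynchos* and in the testis in *L. luscinia*, and 4 the other way round. XP_016160880 was among the 12, although its *L. luscinia* interval included equal levels. Directions were counted without a minimum of reads. AGGF1 and LOC107603709, among the 8, had as few as 1 ovary and 1 testis read in *L. luscinia*.

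Between species, XP_016160879 was higher in *L. luscinia* in both tissues. The paper reports that the copy number of genes on the GRC varies between species and between individuals. The deposited FPKM carries any such difference, and its part in the HAUS6 levels was not tested. In the ovary the *L. luscinia* over *L. megarhynchos* ratio was 3.09 (log2 1.63), with a widest counting interval of 2.52 to 3.81. Of 63 entries above 0 in both ovaries, 20.6% were at least 2-fold higher in *L. luscinia*, 9 had a higher ratio than HAUS6, and the median ratio was 0.513. Divided by the library sums, the log2 ratio was 3.65.

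In the testis the *L. luscinia* over *L. megarhynchos* ratio of XP_016160879 was 5.32 (log2 2.41), with a widest interval of 2.76 to 11.7. Of 59 entries above 0 in both testes, 42.4% were at least 2-fold higher in *L. luscinia*, 16 had a higher ratio, and the median ratio was 0.9497. A testis fold of 2 or more was thus common among the entries.

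The second identifier differed the other way and by more. In the ovary XP_016160880 was 463-fold lower in *L. luscinia* than in *L. megarhynchos* (log2 -8.86, widest interval -10.48 to -7.63). The *L. luscinia* value rests on as few as 5 reads. With pseudocounts of 0.01, 0.1 and 1 the log2 ratio was -6.97, -4.12 and -1.43, so its size depended on the pseudocount. The deposited ratio was the lowest of the 63 entries above 0 in both ovaries, of which 49.2% were at least 2-fold lower in *L. luscinia*. Entries at 0 in either ovary were left out. In the testis XP_016160880 was 24.5-fold lower in *L. luscinia* (log2 -4.62, widest interval -5.54 to -3.80). With the same pseudocounts that log2 ratio was -3.47, -1.40 and -0.234. Of the 59 entries above 0 in both testes, 2 had a lower ratio, while 35.6% were at least 2-fold lower. The sum of both identifiers kept the direction of XP_016160879, with a log2 ratio of 1.36 in the ovary and 2.20 in the testis.

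**Figure D4:**
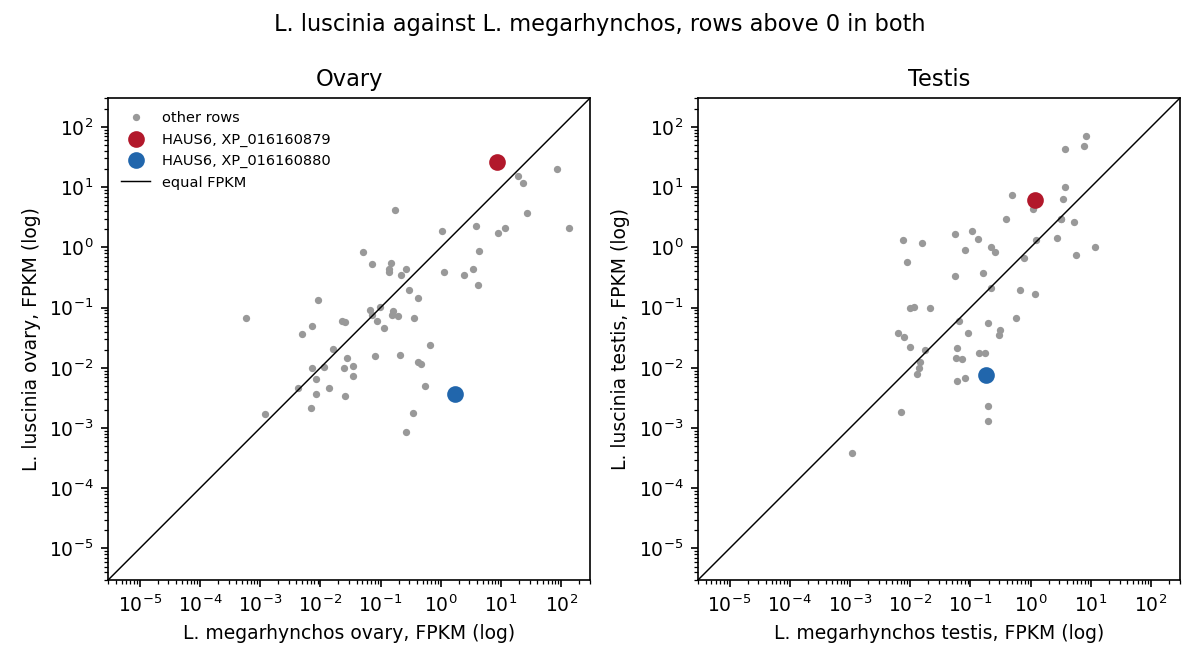
FPKM in *L. luscinia* against FPKM in *L. megarhynchos* (both log scales) of entries above 0 in both ovaries (63 entries) and in both testes (59 entries), 1 bird per species and tissue, with a line at equal FPKM. XP_016160879 lies above the line in the ovary (ratio 3.09) and testis (5.32), and XP_016160880 is the entry farthest below it in the ovary.

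A total of 21 symbols had several identifiers in the table, and 10 of these were above 0 in both ovaries. In 9 of the 10, HAUS6 among them, the same identifier was highest in both ovaries, and the exception was FOXN2, a forkhead transcription factor. The share of the summed FPKM that moved between identifiers from one species' ovary to the other was 16.7% for HAUS6. It was 0.613% for SLC26A9, 0.236% for CPEB1, 4.37% for LARP4, 22.4% for LOC107604464 and 35.3% for ELAVL4, a neuronal RNA-binding protein. FBXO11 and MFSD2B had 0%, GLYR1 had 4.03% and FOXN2 had 100%. Of these genes LOC107604464, ELAVL4 and FOXN2 had a larger shift than HAUS6, and the others had a smaller one.

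Few genes of the machinery HAUS6 works in had entries. Of 20 symbols of augmin and of microtubule nucleation (the 8 HAUS subunits, gamma-tubulin, its complex proteins and their recruiters), only HAUS6 and PCNT had entries. PCNT, which encodes the centrosomal scaffold pericentrin, was listed at 0 in all 4 libraries. None of 47 symbols of spindle, centrosome and kinetochore had an entry. Entries were listed only where assigned to the GRC, so these lists say nothing of the same genes on the A chromosomes.

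Of 24 meiosis symbols, 5 had entries. In each library 2 of the 5 were above 0. Of all 799 entries, 17.5% and 16.9% were above 0 in the *L. luscinia* ovary and testis. In the *L. megarhynchos* ovary and testis these shares were 24.8% and 22.9%. The list was chosen with earlier results of these data known, so its counts are a description only. SYCE3 was at 12.1 FPKM in the *L. megarhynchos* ovary and 0.216 FPKM in the *L. megarhynchos* testis and was listed at 0 in both *L. luscinia* libraries. RNF212B, related to a regulator of crossing over, had 1.29 FPKM in the *L. luscinia* ovary and 0.121 FPKM in the *L. luscinia* testis and was listed at 0 in *L. megarhynchos*. None of these 5 entries was above 0 in all 4 libraries, as 41 of all 799 entries were. SYCP1, of the transverse filament of the synaptonemal complex, was above 0 in 3 libraries, with 0.0681 FPKM in the *L. luscinia* ovary, 0 in testis of that species, 0.365 FPKM in the *L. megarhynchos* ovary and 0.0110 FPKM in the *L. megarhynchos* testis. MSH4, a crossover factor, had 0.0371 FPKM in the *L. luscinia* testis and was listed at 0 elsewhere, and TEX12, of the central element, was listed at 0 throughout.

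Of a list of 23 symbols of oocyte genes and RNA regulators, 5 had entries, 11 in all. Most of the 11 were identifiers of AGO2, ELAVL4 and LARP4, so the counts do not stand for germ cell genes as a set. Of the 11, 7 were above 0 in the *L. luscinia* ovary and 3 in the *L. luscinia* testis. In the *L. megarhynchos* ovary and testis 7 and 2 were above 0, beside the shares of all entries given for the meiosis list. This list too was chosen with earlier results known, so its counts are a description only. CPEB1, which controls the translation of stored oocyte mRNAs, had 11.8 FPKM in the *L. luscinia* ovary and 22.9 FPKM in the *L. megarhynchos* ovary in its leading identifier and was listed at 0 in both testes. AGO2, an Argonaute protein of RNA silencing, had 2.16 FPKM in the *L. luscinia* ovary and 0.0309 FPKM in the *L. luscinia* testis and was listed at 0 in *L. megarhynchos*. LARP4, a poly-A-binding protein, had 0.384 FPKM in the *L. luscinia* ovary, 0.563 FPKM in the *L. luscinia* testis, 1.15 FPKM in the *L. megarhynchos* ovary and 0.00874 FPKM in the *L. megarhynchos* testis. ELAVL4 was listed at 0 in both testes in its 3 identifiers, and the kinase MOS of oocyte maturation was at 0 in all libraries. No entry of either list exceeded XP_016160879 in either testis, while SYCE3 and CPEB1 did so in the *L. megarhynchos* ovary.

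Most markers of gonad cell types had no entry, as entries were listed only where assigned to the GRC. Of 11 granulosa and theca symbols none had an entry, and of 7 Sertoli and Leydig symbols 1 had an entry, DMRT1, at 0.436 FPKM in the *L. luscinia* ovary and 0.267 FPKM in the *L. megarhynchos* ovary and listed at 0 in both testes. Of 10 symbols of sperm flagellum and cilium, 3 had entries, of which ZMYND10 had 0.0627 FPKM in the *L. megarhynchos* ovary and the other values were 0. All lists were matched by symbol only, so such genes under LOC or other symbols were not counted. The paper reports homologues of *hydin* on both GRCs, while the listed symbol HYDIN had no entry. The labelled tissues could therefore not be checked by these markers, and the part of cell composition in the HAUS6 levels was not tested.

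The likeness of other entries to HAUS6 was measured as the Euclidean distance between log2 FPKM profiles over the 4 libraries, each centred on its own mean, among the entries above 0 in all 4. Among the 39 entries of other symbols the median distance to XP_016160879 was 5.92. Near to it were LOC107603884 (distance 1.90), LARP4 in its identifier XP_016160800 (2.15), LOC107603883 (2.499) and POLR2B (2.94). POLR2B had 0.879 FPKM in the *L. luscinia* ovary, 0.375 FPKM in the *L. luscinia* testis, 4.32 FPKM in the *L. megarhynchos* ovary and 0.161 FPKM in the *L. megarhynchos* testis. These 4 entries had their lowest value in the *L. megarhynchos* testis, as HAUS6 did, and none of the 4 had its highest value in the *L. luscinia* ovary. In that testis the least reads were 1 for LOC107603884, 2 for LARP4, 1 for LOC107603883 and 20 for POLR2B. The likeness of the entries other than POLR2B may thus rest on very few reads.

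XP_016160880 was at a distance of 9.03 from XP_016160879, and 31 of the 39 other entries were nearer. The entry nearest to XP_016160880 was AGGF1, an angiogenic factor, at a distance of 2.11, with 0.00178 FPKM in the *L. luscinia* ovary, 0.00130 FPKM in the *L. luscinia* testis, 0.348 FPKM in the *L. megarhynchos* ovary and 0.199 FPKM in the *L. megarhynchos* testis. LOC107603709 (3.06), LOC101821786 (3.71), LOC101813323 (5.33) and PTPN2, a tyrosine phosphatase (5.46), followed. All 5 were higher in both *L. megarhynchos* libraries than in either *L. luscinia* library, as was XP_016160880. The least reads in *L. luscinia* were 1 ovary and 1 testis read for AGGF1 and for LOC107603709. They were 1 and 6 for LOC101821786, 1 and 5 for PTPN2, and 53 and 110 for LOC101813323. PTPN2 had 0.0148 FPKM in the *L. megarhynchos* testis against 0.0124 FPKM in the *L. luscinia* testis. Apart from LOC101813323, these profiles may thus rest on very few reads.

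**Figure D5:**
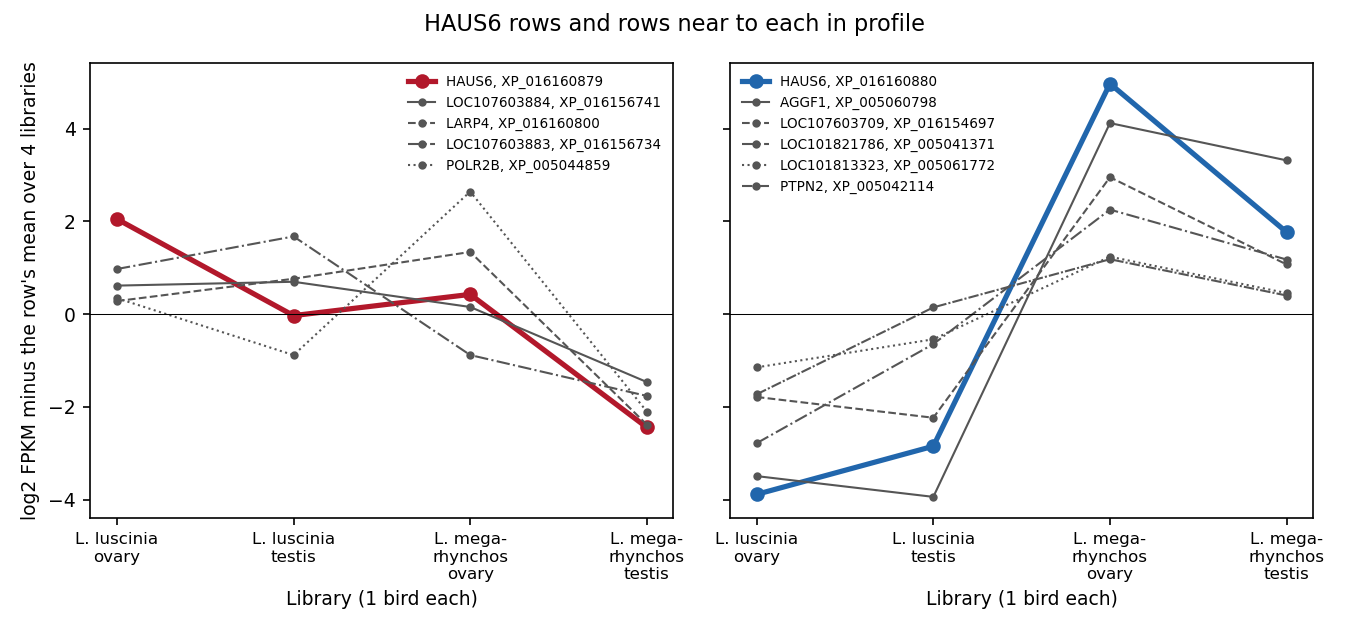
log2 FPKM minus the mean of the entry over the 4 libraries (1 bird each), for XP_016160879 and 4 of the 5 entries nearest to it (left) and for XP_016160880 and its 5 nearest (right); lines join the values of one entry. XP_016160879 is highest in the *L. luscinia* ovary and lowest in the *L. megarhynchos* testis, and XP_016160880 is high only in the *L. megarhynchos* libraries.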

How the data were processed

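The mRNA of 4 gonad libraries from 4 birds was analysed, 1 per species and tissue. According to the study's methods and the labels, the authors trimmed the reads with Trimmomatic 0.39 and used STAR 2.7.9a for alignment to each species' somatic genome plus GRC assembly, keeping unique alignments to exons matched to flycatcher coding sequences by Tblastx. Which program counted reads, and whether strand was used, is not given in the sources used here. Values were deposited by the authors as FPKM for 799 entries, in 1 column a library and with decimal commas, and no per-sample column was left unused. FPKM is scaled by length and library, which affects levels between genes and species.

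Ratios were taken of deposited FPKM without a pseudocount, for entries above 0 in both libraries. Total reads per library are not in the file. Relative depth followed from the ovary to testis ratio most frequent among low entries: the testis library had 1.36 times the depth of the ovary library in *L. luscinia* and 0.614 times in *L. megarhynchos*. The least whole read pairs were then read from the ratios, and exact Poisson and binomial 95% intervals were computed from them. Reads without molecular identifiers are not independent molecules, so intervals cover counting error only. Tested on simulated data for 799 entries, all 95 *L. luscinia* and 114 *L. megarhynchos* pairs (100%) were recovered in lowest terms. The simulated read numbers were capped below the highest least reads of the data, though above those of HAUS6.

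The genes named are HAUS6, the 3 entries above and below it in each library, the 5 entries nearest in profile (1 is not reported here) and the measured members of the lists of augmin, spindle, meiosis, oocyte and cell type genes. The rank neighbours of XP_016160880 are not listed. The gene and the lists were chosen with earlier results of these data known. Alternatives were pseudocounts of 0.01, 0.1 and 1, scaling by the library sum or by the median ratio, minimum values of 0.1 and 1 FPKM, summed identifiers, entries without LOC symbols, entries above 0 in all 4 libraries, sums without the 5 highest other entries, and a 4-fold threshold. Python 3.11.15, numpy 2.4.6, pandas 2.3.3, scipy 1.17.1 and matplotlib 3.10.9 were used.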

Additional observations from a re-analysis of the deposited data

Results flagged for a closer look

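XP_016160880 moved in opposite directions between tissues in the 2 species: its log2 ovary over testis ratio was -1.04 in *L. luscinia* and 3.20 in *L. megarhynchos*. The *L. luscinia* value rests on as few as 5 ovary and 14 testis reads, and its widest counting interval, -2.86 to 0.52, included 0. With 1 bird per species and tissue the difference was not tested.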

How the results depend on the processing

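The 4 ratios of XP_016160879 kept their direction under all 24 alternatives (pseudocounts, scalings and summed identifiers). A pseudocount added to both values cannot turn a ratio, so only the scalings and the summed identifiers could have changed a direction. The ratios with the *L. luscinia* ovary hold the value that HAUS6 was picked for. Scaled by the library sum, the log2 ratio of XP_016160879 was 3.06 for ovary over testis in *L. luscinia* and 1.13 in *L. megarhynchos*. It was 3.65 for *L. luscinia* over *L. megarhynchos* in the ovary, and the difference of the ovary over testis ratios turned to 1.93. The median ratio between the tissues may rest on very few reads in both species. Scaled by the median ratio, the log2 ratio was 2.63 for ovary over testis in *L. luscinia* and 2.59 between the ovaries, and the share of entries at least 2-fold higher was 34.7% (*L. luscinia* tissues), 36.0% (*L. megarhynchos* tissues) and 36.5% (ovaries). At 4-fold it was 14.7% for the *L. luscinia* tissues and 11.1% for the ovaries, and at 1 FPKM or more 10% for the ovaries. Without LOC symbols XP_016160879 ranked 1 in the *L. luscinia* testis, 9 in the *L. megarhynchos* ovary and 4 in testis of that species, among entries above 0 in all 4 libraries it ranked 6, 5 and 11 in the same order, and with identifiers summed 10 in the *L. megarhynchos* ovary and 21 in testis of that species. Its share of the sum was 43.2%, 9.76%, 7.13% and 1.62% without the 5 highest other entries, and 23.9%, 61.9%, 2.32% and 3.63% without LOC symbols (*L. luscinia* ovary and testis, then *L. megarhynchos* ovary and testis). With both identifiers summed, the log2 ratios of XP_016160880 turned to 2.08 (ovary over testis in *L. luscinia*), 1.36 (between ovaries) and 2.20 (between testes), because XP_016160879 makes up most of the summed FPKM. This rests on the unchecked length scaling. In *L. megarhynchos* XP_016160880 had the more least reads, 1364 against 107 in the ovary and 91 against 9 in the testis. Further causes were not tested. No replicate could be left out. No paired analysis was possible because the ovary and testis of a species came from different birds and share no replicate number. An additive fit of species and tissue, which would take any interaction as error, was not made. Depth limits XP_016160880 in *L. luscinia* and XP_016160879 in the *L. megarhynchos* testis most.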

Other observations

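Some genes that lie near HAUS6 in the human genome had entries in the table, and they were looked up after the HAUS6 values were seen. SAXO1, which encodes a protein that stabilises microtubules of cilia and flagella, was listed at 0 in the *L. luscinia* ovary, and had 0.0176 FPKM in the *L. luscinia* testis, 0.512 FPKM in the *L. megarhynchos* ovary and 0.139 FPKM in the *L. megarhynchos* testis. PLIN2, a coat protein of lipid droplets, and ADAMTSL1 were listed at 0 in all 4 libraries. In the flycatcher annotation SAXO1, PLIN2 and ADAMTSL1 were on another scaffold than HAUS6. The only entry of another gene on the HAUS6 scaffold, LOC101815762, was also listed at 0 in all 4 libraries. Whether any of these genes lies near HAUS6 on the GRC was not tested.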
